A study of Mus musculus with 6 samples.

Results

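The genes described are those of the enzymes that write and remove DNA methylation: the methyltransferase genes Dnmt1, Dnmt3a and Dnmt3b, the methyltransferase-like cofactor gene Dnmt3l, Uhrf1, the TET dioxygenase genes Tet1, Tet2 and Tet3, and the thymine DNA glycosylase gene Tdg. They were selected by symbol, and all 9 were found among the 55549 rows of the gene tables. RNA was sequenced from mouse embryos at the early 2-cell stage, with 3 libraries of control embryos and 3 of embryos that had been moved as zygotes, 4 h after fertilization, into culture medium holding 40 uM ethylparaben (EtP), a preservative. Most exposed embryos stopped developing at this stage, per the series. The labels give no strain, genotype, vehicle, hour of collection, number of embryos per library or separate cultures, so the p-values measure the spread between libraries, which may be technical, and exposed and control embryos may differ in age.

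In the mammalian genome DNMT1, guided to newly replicated DNA by UHRF1, copies methylation onto the daughter strand, while DNMT3A and DNMT3B methylate unmarked sites. DNMT3L has no catalytic activity and stimulates DNMT3A in the growing egg, where most of the egg's methylation is laid down. TET enzymes oxidise 5-methylcytosine, TET3 being the form stored in the egg that acts in the zygote, and TDG removes the later oxidation products so that repair can restore an unmodified cytosine.

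Library totals were 11173295 to 14737152 estimated counts. At least 1 count was found for 25971 to 26103 genes in control and for 19321 to 19713 in EtP libraries. Normalization factors by the trimmed mean of M values (TMM) lay between 1.1983 and 1.3855 in control libraries and between 0.7378 and 0.833 in EtP libraries, so the scaling itself differed between the groups. Levels below are CPM, counts divided by the TMM-scaled library size. Log2 CPM of libraries of the same group correlated at 0.931 to 0.98, and of different groups at 0.87 to 0.905. Summed markers of the egg were at 9450 to 13765 CPM in control and 29103 to 32399 in EtP, with 7 of 10 higher, Oog1 and Bmp15 the most abundant (6158 ± 1553 and 3002 ± 254 CPM in control, 12642 ± 1014 and 10369 ± 467 in EtP). Those of the 2-cell stage were at 322.6 to 420.7 and 23.8 to 28.2 CPM, with 9 of 9 lower, Zfp352 and Zscan4d the most abundant (83.8 ± 15.9 and 63.7 ± 3.74 CPM in control, 0.221 ± 0.0277 and 6.30 ± 0.564 in EtP). Cumulus cell markers summed to 5.55 to 9.60 CPM in control and 1.08 to 1.93 in EtP; Fshr and Ptgs2 led them at 1.64 ± 0.471 and 1.86 ± 1.75 CPM in control, 3 of 4 tested were lower, and Ptx3 and Amh were at 0 in every library. Sperm markers summed to 7.01 to 15.1 and 3.64 to 4.53 CPM; Prm2 and Acrv1 led them at 7.44 ± 3.16 and 1.90 ± 0.646 CPM in control, 1 of 2 tested was lower, and Tnp1 and Smcp were at 0 throughout. Markers of later lineages summed to 38.5 to 49.1 and 49.7 to 60.9 CPM, with 1 of 6 tested higher and 1 lower; Gata3 was at 20.3 ± 5.04 and 27.2 ± 3.57 CPM and Nanog at 10.3 ± 3.07 and 22.5 ± 6.87. By the edgeR test given below, 12.5% of all genes tested were called higher and 18.1% lower. The part of these marker differences in the results was not tested. In such bulk libraries fewer cells of a type and less RNA per cell cannot be told apart.

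Dnmt1 and Dnmt3l carried the largest increase and the largest decrease among the 8 genes that could be tested, and each has several annotated starts. Their promoter windows, from 250 bases before to 50 after each RefSeq start on GRCm38.p6 (the mm10 assembly), are therefore shown, with each CpG in capitals, since the CpG is the site these enzymes act on. The 3 Dnmt1 windows lie on the minus strand at chr9:20959839-20960138, where GENCODE M21 has the start of transcript Dnmt1-202, at chr9:20952930-20953229, that of Dnmt1-201, and at chr9:20952574-20952873, that of Dnmt1-203. The 3 Dnmt3l windows lie on the plus strand at chr10:78042037-78042336 (Dnmt3l-205), chr10:78049592-78049891 (Dnmt3l-201) and chr10:78055085-78055384 (Dnmt3l-202, Dnmt3l-203 and Dnmt3l-206).
Dnmt1 window 1: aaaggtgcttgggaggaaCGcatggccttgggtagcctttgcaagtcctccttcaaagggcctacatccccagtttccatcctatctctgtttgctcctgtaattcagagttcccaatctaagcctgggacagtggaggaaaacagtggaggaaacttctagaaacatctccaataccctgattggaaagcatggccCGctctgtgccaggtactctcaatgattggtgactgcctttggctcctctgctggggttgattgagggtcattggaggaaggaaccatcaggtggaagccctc
Dnmt1 window 2: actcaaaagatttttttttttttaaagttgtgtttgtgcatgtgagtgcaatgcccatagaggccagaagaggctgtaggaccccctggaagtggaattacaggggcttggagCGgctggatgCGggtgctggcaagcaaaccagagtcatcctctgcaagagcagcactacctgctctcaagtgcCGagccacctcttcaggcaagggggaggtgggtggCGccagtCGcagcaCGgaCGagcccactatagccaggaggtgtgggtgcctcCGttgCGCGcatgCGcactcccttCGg
Dnmt1 window 3: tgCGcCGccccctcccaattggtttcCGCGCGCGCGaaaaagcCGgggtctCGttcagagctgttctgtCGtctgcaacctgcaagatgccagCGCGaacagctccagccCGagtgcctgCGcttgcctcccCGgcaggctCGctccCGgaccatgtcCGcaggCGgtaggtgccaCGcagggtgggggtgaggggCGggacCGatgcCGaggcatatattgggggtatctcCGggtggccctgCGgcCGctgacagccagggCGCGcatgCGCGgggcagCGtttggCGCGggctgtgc
Dnmt3l window 1: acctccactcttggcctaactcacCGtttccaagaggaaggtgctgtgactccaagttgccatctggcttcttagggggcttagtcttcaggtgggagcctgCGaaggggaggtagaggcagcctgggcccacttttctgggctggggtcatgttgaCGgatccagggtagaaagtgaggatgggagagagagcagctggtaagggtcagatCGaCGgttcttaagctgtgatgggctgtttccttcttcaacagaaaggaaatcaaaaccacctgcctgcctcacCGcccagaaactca
Dnmt3l window 2: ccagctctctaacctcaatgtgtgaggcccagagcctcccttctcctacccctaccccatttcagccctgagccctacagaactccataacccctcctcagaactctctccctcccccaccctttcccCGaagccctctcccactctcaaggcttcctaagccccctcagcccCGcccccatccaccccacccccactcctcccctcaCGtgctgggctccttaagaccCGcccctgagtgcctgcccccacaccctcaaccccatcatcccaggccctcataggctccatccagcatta
Dnmt3l window 3: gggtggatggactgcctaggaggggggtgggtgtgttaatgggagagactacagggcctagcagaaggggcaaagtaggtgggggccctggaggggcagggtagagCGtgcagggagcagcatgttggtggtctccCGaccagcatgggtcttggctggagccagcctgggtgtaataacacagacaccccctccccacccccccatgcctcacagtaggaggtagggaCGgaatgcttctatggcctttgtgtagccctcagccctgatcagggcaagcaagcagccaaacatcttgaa

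The Dnmt1 windows held 2, 12 and 33 CpG, and the Dnmt3l windows 6, 4 and 3. Over all 32851 RefSeq windows the median was 7, with quartiles of 3 and 20. The first Dnmt1 window thus lay low in this distribution, with fewer CpG in 14.1% of windows, and the third lay high, with fewer in 91.4%. None of the Dnmt3l windows passed the median. Tet2 had the window richest in CpG of the 9 genes, with 57, and fewer in 99.8% of all windows; the 3 windows of Dnmt3a held 46, 47 and 18, that of Dnmt3b 30, that of Tdg 26, that of Tet3 22, that of Tet1 17, and those of Uhrf1 12 and 33. All 9 genes had at least 1 window, 16 in all.

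Core promoter motifs were searched on both strands of these windows. TATAAA was in none of the 16 windows, against 13.6% of all windows. The 5-letter CCAAT box was found 5 times in the first Dnmt1 window and 3 times in the third, and in no Dnmt3l window; 37.4% of all windows held it. The GC box GGGCGG was found 2 times in the third Dnmt1 window, once in the first Dnmt3l window and 2 times in the second, against 35.7% of all windows with a match. An E2F site, written as TTTGGCGC or TTTCCCGC, was found once, in the third Dnmt1 window, and in 1.56% of all windows. A match describes the letters of the window and shows neither binding nor use of that start.

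Relative to the TMM-scaled library size, RNA of Dnmt1 was 14.1-fold higher in EtP embryos and that of Dnmt3l was 2.28-fold lower. That of Dnmt3a was 1.58-fold higher, a difference that was not called under several other settings. Priming was on poly(A) tails, so only polyadenylated RNA was captured, and CPM gives no amount per embryo. Whether tail length differed between the groups was not tested. Of the 9 genes 8 passed the low-count filter, and Tdg did not. By edgeR's quasi-likelihood test with Benjamini-Hochberg adjustment over 14373 genes, 2 were called higher, 1 was called lower and 5 were not called at an adjusted p of 0.05. Over all genes tested 12.5% were called higher and 18.1% lower, 30.6% in either direction, so the number of calls among the 8 was near the background and the results lie in single genes. The median log2 fold change of the 8 was 0.35, beside -0.19 over all genes tested. TMM-scaled CPM did not overlap between groups, with EtP higher, for 4 of them (Dnmt1, Uhrf1, Dnmt3a and Tet3), where 19% of all genes tested showed the same. They did not overlap with EtP lower for 3 (Dnmt3l, Tet1 and Tet2), against 27.9% of all genes. Scaling moved these values: with library size alone the median over all genes was -0.92, a shift shared by every gene.

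**Figure D1:**
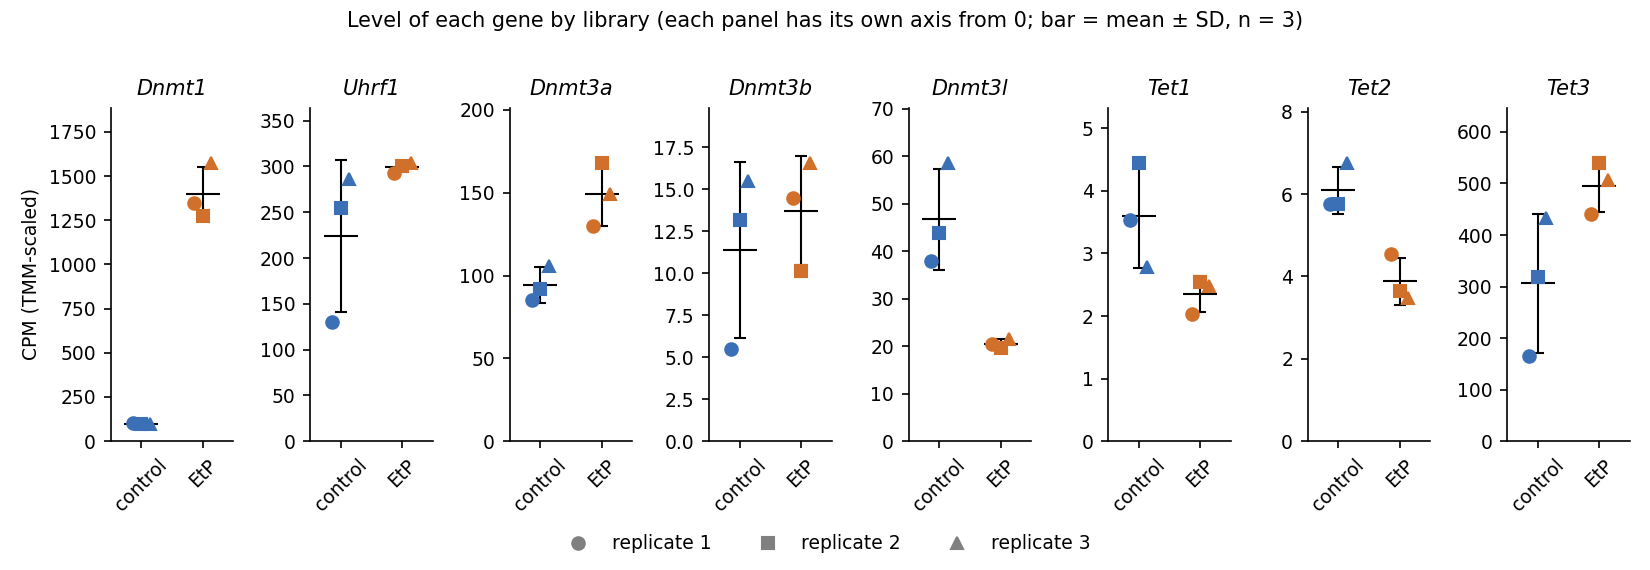
TMM-scaled CPM of the 8 tested genes in each library, 1 panel per gene with its own linear axis from 0. Tdg is not drawn. Points are single libraries, marked by replicate number, and bars give the mean and SD of 3 libraries per group. The Dnmt1 libraries sit at 97.0 to 101.7 CPM in control and 1276 to 1573 in EtP, and those of Dnmt3l at 37.9 to 58.5 and 19.6 to 21.5.

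Dnmt1 (ENSMUSG00000004099.16, chr9:20907209-20959888, minus strand, mm10), the methyltransferase that maintains methylation through replication, had 101.7, 97.0 and 98.9 CPM in the control libraries and 1348, 1276 and 1573 CPM in the EtP libraries. All EtP libraries were far above all controls, and the controls differed little among themselves. These values rested on 1524 to 1834 estimated counts per control and 11547 to 18994 per EtP library. The increase was 3.82 ± 0.22 (log2, SE; edgeR adjusted p = 2.55e-06). It was the 10th largest log2 increase among the 14373 genes tested, and of the 1516 genes called higher with a mean of at least 10 CPM only 6 had a larger one. Ranked by TPM, the deposited abundance that is also divided by transcript length, Dnmt1 stood at place 2078, 2193 and 2476 of the 55549 rows in control and at 215, 209 and 186 in EtP. With each alternative scaling, filter, test and left-out library the log2 increase lay between 3.09 and 3.93 and was called.

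Uhrf1 (ENSMUSG00000001228.14, chr17:56303321-56323486, plus strand) encodes the protein that reads hemimethylated CpG and ubiquitinates histone H3 to bring DNMT1 to the replication fork. It had 129.7, 254.4 and 286.8 CPM in control and 292.8, 300.6 and 303.6 CPM in EtP libraries. The EtP values lay close together, just above the highest control, while the first control was far below the other two. Its pseudogene Gm5648, 98.3% identical over 1590 bases, was listed with 1.04 to 6.75 estimated counts per library. The difference was not called (log2 0.42 ± 0.28, SE; edgeR adjusted p = 0.281), and its sign changed with library-size scaling (-0.34) and in TPM (-0.16 by limma). The number of TPM of Uhrf1 per TPM of Dnmt1 was 0.886, 2.05 and 2.87 in control and 0.119, 0.127 and 0.122 in EtP libraries. This ratio does not depend on library scaling, but it does depend on the estimated transcript lengths. With expected counts in place of TPM the log2 ratio differed between groups by -3.31, beside -3.82 in TPM. The log2 ratio was 0.79 ± 0.87 in control and -3.03 ± 0.04 in EtP (SD, n = 3 each), a 14.1-fold difference without overlap (exact two-sided permutation p = 0.1, the smallest that 3 against 3 allows; 0.14 adjusted over the 7 ratios compared).

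Dnmt3a (ENSMUSG00000020661.15, chr12:3806007-3914443, plus strand) encodes the de novo enzyme that methylates the genome of the growing egg. It had 85.0, 91.9 and 106.1 CPM in control and 130.0, 167.8 and 149.4 CPM in EtP libraries. Every EtP library lay above every control, though the gap was smaller than the range of the EtP libraries. The log2 increase was 0.66 ± 0.21 (SE; edgeR adjusted p = 0.034), but with library-size scaling the sign changed (-0.08, adjusted p = 0.786), and relative to the median gene the value was 0.85 under TMM and 0.84 under library-size scaling. The call was lost without control 2 (adjusted p = 0.0885), EtP 1 (0.0616), EtP 2 (0.107) or EtP 3 (0.0822) in edgeR, and in TPM (101.4, 87.7 and 90.2 in control; 97.4, 118.5 and 117.3 in EtP) the groups overlapped.

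Dnmt3b (ENSMUSG00000027478.15, chr2:153649450-153687730, plus strand), the de novo enzyme best known from the implanting embryo, was at low levels, with 5.52, 13.2 and 15.5 CPM in control and 14.5, 10.2 and 16.6 CPM in EtP libraries. The groups overlapped, and the first control was the lowest of the 6. The log2 difference was 0.27 ± 0.37 (SE; edgeR adjusted p = 0.609), and its sign changed with library-size scaling (-0.48) and in TPM (-0.20). In TPM the gene had a mean of 5.49 ± 3.27 in control and 4.27 ± 1.76 in EtP, against 93.1 ± 7.31 and 111.0 ± 11.8 for Dnmt3a (SD, n = 3). The log2 ratio of Dnmt3b to Dnmt3a was -4.32 ± 1.19 in control and -4.78 ± 0.66 in EtP, with overlap (exact permutation p = 0.6; adjusted 0.7).

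Dnmt3l (ENSMUSG00000000730.13, chr10:78041947-78063622, plus strand), the cofactor of DNMT3A in the egg, moved the other way. It had 37.9, 43.9 and 58.5 CPM in control and 20.4, 19.6 and 21.5 CPM in EtP libraries. All EtP libraries lay below all controls and close to each other. Among the 14373 genes tested its log2 decrease was the 2313th largest. The log2 fold change was -1.19 ± 0.24 (SE; edgeR adjusted p = 0.00391), and it stayed between -1.93 and -0.95 and called under every alternative setting and left-out library. The gene overlaps Aire on the opposite strand, and the library protocol does not mark strand; Aire was listed with 86.6, 90 and 46 estimated counts in control and 20, 19 and 22 in EtP, against 631.4 to 902 and 177 to 260 for Dnmt3l. TPM of Dnmt3l per TPM of Dnmt3a was 0.36, 0.689 and 0.879 in control and 0.159, 0.115 and 0.136 in EtP libraries, a 4.44-fold lower ratio without overlap (exact permutation p = 0.1; adjusted 0.14). RNA of the cofactor gene was thus lower relative to that of the enzyme gene in every EtP library than in every control. Protein was not measured.

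Within the summed TPM of the 4 Dnmt genes, Dnmt1 made up 30.1%, 29.2% and 24.9% in control and 86.2%, 84.3% and 86.2% in EtP libraries. Dnmt3a was the leading gene of the group in every control library and Dnmt1 in every EtP library. The share of Dnmt3a was 43.0% ± 6.71 in control and 12.3% ± 1.34 in EtP, that of Dnmt3l 26.5% ± 7.69 and 1.66% ± 0.138, and that of Dnmt3b 2.44% ± 1.32 and 0.464% ± 0.153 (SD, n = 3). The groups did not overlap for any of these 4 shares (exact permutation p = 0.1 each, 0.117 adjusted over 7 shares). Shares of one sum are tied to each other, so the rise of Dnmt1 by itself lowers those of the other genes. In TPM itself the groups of Dnmt3a and of Dnmt3b overlapped, while Dnmt3l was lower in EtP without overlap. Summed TPM of the 4 genes was 200.3, 217.6 and 236.9 in control and 849.5, 855.4 and 1010 in EtP (exact permutation p = 0.1), and Dnmt1 alone had 61.0 ± 2.27 and 774.6 ± 83.4 TPM.

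**Figure D2:**
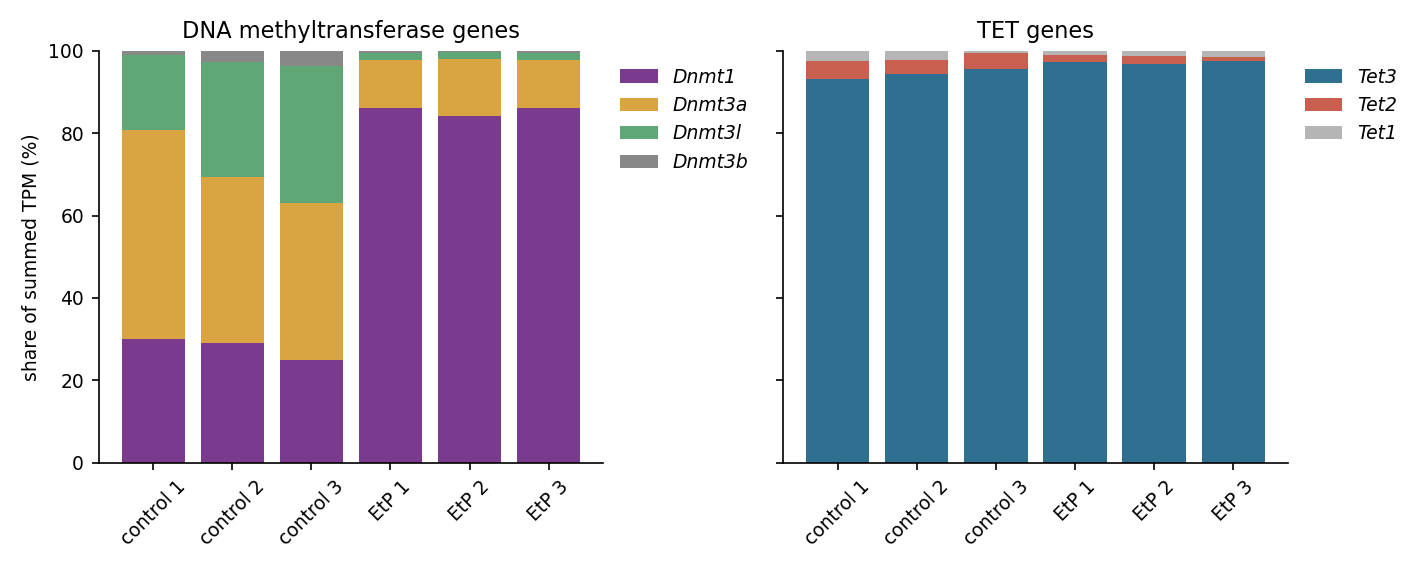
Share of each gene in the summed TPM of the 4 Dnmt genes (left) and of the 3 TET genes (right), as stacked bars in percent, 1 bar per library. Dnmt1 takes 24.9% to 30.1% of its group in control and 84.3% to 86.2% in EtP libraries, while Tet3 takes 93.1% to 97.5% of its group over all 6 libraries.

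Tet3 (ENSMUSG00000034832.15, chr6:83362373-83459084, minus strand), the dioxygenase of the egg and zygote, was the most abundant of the TET genes. It had 165.9, 319.0 and 433.7 CPM in control and 439.8, 539.3 and 507.7 CPM in EtP libraries. The lowest EtP library was just above the highest control, and the controls were spread more widely than the EtP libraries. The log2 difference of 0.69 ± 0.31 (SE) was not called (edgeR adjusted p = 0.113), and its sign changed with library-size scaling (-0.06) and in TPM (-0.20). It was called with a replicate block (0.80, adjusted p = 0.00896), by DESeq2 (0.80, adjusted p = 0.0408), without the low-count filter (0.74, adjusted p = 0.0324) and without control 3 (1.08, adjusted p = 0.0129). In TPM the values were 112.1, 202.1 and 226.8 in control and 153.9, 132.6 and 165.1 in EtP, and the groups overlapped.

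Tet1 (ENSMUSG00000047146.17, chr10:62804570-62908996, minus strand), the TET enzyme of pluripotent and germ cells, was near the lower end of detection with 3.54, 4.44 and 2.79 CPM in control and 2.03, 2.54 and 2.48 CPM in EtP libraries. These levels rested on 43 to 84 estimated counts per control and 21 to 30 per EtP library. The groups did not overlap in CPM, but the gap between them was small. The difference was not called (log2 -0.61 ± 0.33, SE; edgeR adjusted p = 0.184), whereas with library-size scaling it was (-1.33, adjusted p = 0.00755).

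Tet2 (ENSMUSG00000040943.12, chr3:133463679-133545139, minus strand), the TET enzyme best known from blood cells, had 5.76, 5.76 and 6.75 CPM in control and 4.54, 3.65 and 3.48 CPM in EtP libraries. All EtP libraries lay below all controls. The log2 difference of -0.65 ± 0.28 (SE) was not called (edgeR adjusted p = 0.102), but it was with library-size scaling (-1.39, adjusted p = 0.00298) and in TPM by limma (-1.26, adjusted p = 0.00714). TPM was 5.33, 7.16 and 9.36 in control and 2.74, 2.74 and 1.78 in EtP libraries. TPM of Tet2 per TPM of Tet3 was 0.0475, 0.0354 and 0.0413 in control and 0.0178, 0.0207 and 0.0108 in EtP, 2.6-fold lower without overlap (exact permutation p = 0.1; adjusted 0.14).

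Within the summed TPM of the TET genes Tet3 held 94.4% ± 1.22 in control and 97.2% ± 0.325 in EtP, and Tet2 held 3.91% ± 0.542 and 1.59% ± 0.49 (SD, n = 3), without overlap for either (exact permutation p = 0.1; 0.117 adjusted over 7 shares). The share of Tet1 overlapped, at 1.73% ± 1.08 and 1.23% ± 0.25 (exact permutation p = 0.4). The TET shares are likewise tied to each other: in TPM itself the groups of Tet3 overlapped, while those of Tet2 did not. The summed TPM of the TET genes was 120.4, 214.1 and 237.3 in control and 158.3, 137.0 and 169.4 in EtP, and overlapped (exact permutation p = 0.4). Across the writing and removing enzymes, TPM of Tet3 per TPM of Dnmt1 was 1.86, 3.18 and 3.84 in control and 0.21, 0.184 and 0.19 in EtP libraries. Tet3 exceeded Dnmt1 in every control library and Dnmt1 exceeded Tet3 in every EtP library, a 14.6-fold difference in the ratio (exact permutation p = 0.1; adjusted 0.14). The log2 ratio of Tet1 to Tet3 was -6.08 ± 1.32 in control and -6.32 ± 0.29 in EtP, with overlap (exact permutation p = 0.9).

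Tdg (ENSMUSG00000034674.18, chr10:82629828-82650799, plus strand), the glycosylase that excises oxidised 5-methylcytosine, was all but undetected. It had 5.11, 0 and 2 estimated counts in the control libraries and 0 in each EtP library, that is 7.11 summed against 0, where a count of 0 allows up to 3 over the group. It failed the low-count filter, and no fold is given at this depth. Its transcripts are 98.7% identical over 2968 bases to those of the pseudogene Tdg-ps, and over 99% identical (99.2% over 1194 and 99.3% over 1193 bases) to those of Gm9855 and Gm5597, all of which had 0 counts in every library. Glt8d2, which overlaps it on the opposite strand, had 7.89 estimated counts in control 1 and 0 in the other libraries. Other glycosylase genes of base excision were measured more deeply: Mbd4 had 9.61 ± 0.0125 CPM in control and 13.1 ± 2.39 in EtP, Ung 34.2 ± 16.2 and 22.1 ± 3.20, and Smug1 28.9 ± 10.9 and 34.3 ± 6.21 (SD, n = 3), none of them called (edgeR adjusted p = 0.191, 0.174 and 0.571; named after their values were seen).

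By mean TPM the order of the 9 genes in control was Tet3, Uhrf1, Dnmt3a, Dnmt1, Dnmt3l, Tet2, Dnmt3b, Tet1 and Tdg. The ranges of neighbours in this order overlapped except between Dnmt3a and Dnmt1, between Dnmt3l and Tet2 and between Tet1 and Tdg. In EtP the order was Dnmt1, Tet3, Dnmt3a, Uhrf1, Dnmt3l, Dnmt3b, Tet2, Tet1 and Tdg, and only the neighbours Dnmt3a and Uhrf1, Dnmt3b and Tet2, and Tet2 and Tet1 overlapped. Dnmt1 moved from the fourth to the first place. TPM without overlap, EtP higher, was found for 1 gene, Dnmt1, against 7.1% of the 13585 genes with a mean of at least 1 TPM, and EtP lower for 2, Dnmt3l and Tet2, against 48.4%.

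**Figure D3:**
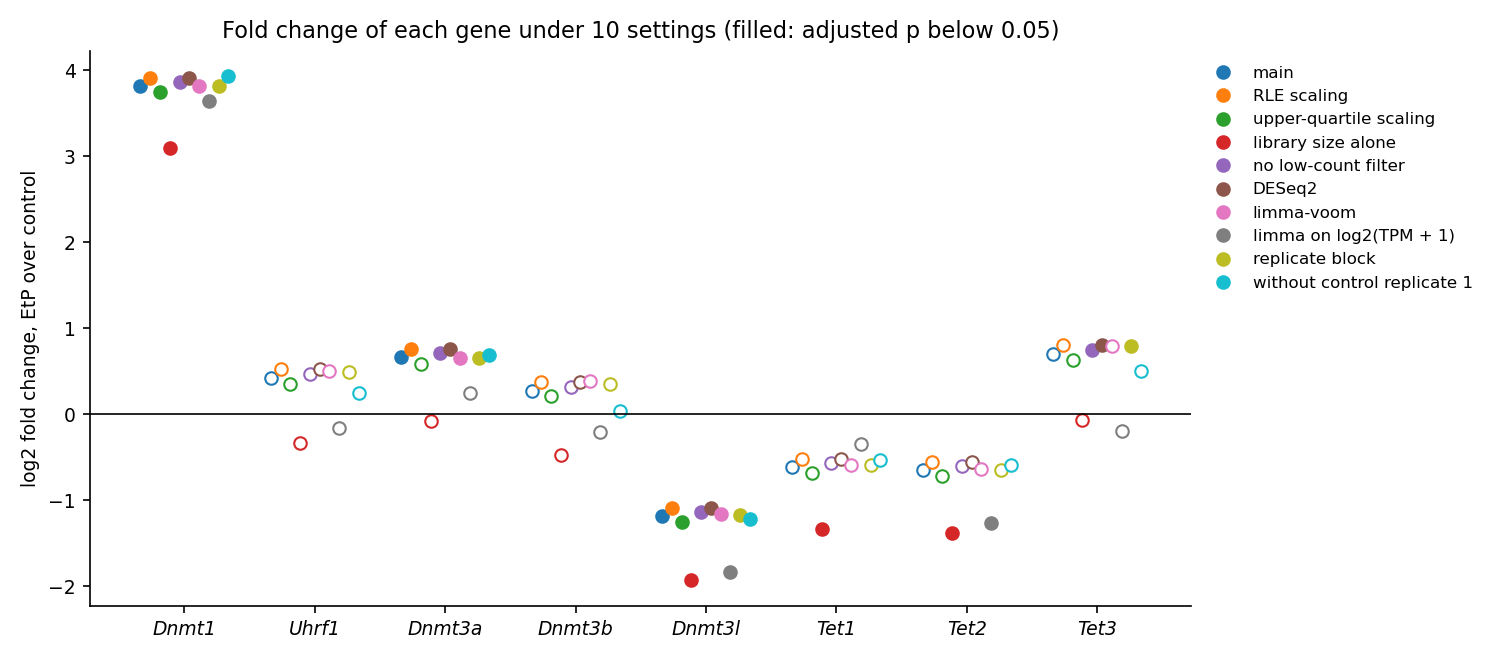
Log2 fold change of EtP over control for the 8 tested genes under 10 settings, 1 colour per setting on a linear axis; filled points have an adjusted p below 0.05. Dnmt1 and Dnmt3l are filled in every setting drawn, while Uhrf1, Dnmt3a, Dnmt3b and Tet3 cross 0 with library size alone (-0.34, -0.08, -0.48 and -0.06).

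The tables also give a length per gene and library, which varied between libraries only for genes with several transcripts and is read here as an average weighted by the estimated isoforms. For Dnmt1 it was 2408, 2684 and 3357 bases in control and 1921, 1877 and 2214 bases in EtP libraries. Every EtP value was below every control value. The means were 2816 ± 488 and 2004 ± 183 bases (SD, n = 3; exact permutation p = 0.1; 0.64 adjusted over 8 genes). All 6 values lie well below the 4 coding transcript models, of 5248 to 5870 bases, and above the short noncoding models of 607, 693 and 1252 bases. Dnmt1-204, the longest of these and a retained-intron model, lies at the 3′ end of the gene (chr9:20907218-20908979). On this reading, part of the Dnmt1 TPM in every library was assigned to noncoding models. The TPM shares, ratios and order given above for Dnmt1 therefore do not count coding transcripts alone. Among 10998 genes with several transcripts 10.7% were shorter in EtP without overlap and 11.5% longer, so 1 of 8 is near the background. The other 7 overlapped, from Uhrf1, at 3385 to 3415 bases in all libraries, to Tet1, at 2716 ± 1745 and 1439 ± 214 bases.

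A search for like profiles covered 5977 genes with a mean of at least 10 CPM and an Ensembl ID. Predicted loci named Gm or Rik were left out. Genes whose CPM profile over the 6 libraries was nearest to that of a called gene were sought by Euclidean distance between centred log2 CPM. For Dnmt1 they were Gnl2 (distance 0.538), Lyar (0.554) and Dnttip2 (0.602). Gnl2 had 11.6, 7.62 and 8.18 CPM in control and 160.5, 134.3 and 144.2 in EtP, with log2 fold changes of 4.00, 3.48 and 3.81 for the 3 genes. For Dnmt3a they were Vcpip1 (0.142), Stk38l (0.183) and Cgas (0.191), of which edgeR called only Cgas (adjusted p = 0.0318, against 0.0722 and 0.0605). For Dnmt3l they were Samd10 (0.198), Lypd3 (0.203) and Cdca3 (0.267), all called, with log2 fold changes of -1.21, -1.14 and -1.02. The likeness is a description over 6 libraries in 2 groups.

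Beyond the 9 genes, 85 genes of 6 lists of partners were examined, of which 71 passed the low-count filter. EdgeR called 15 higher and 10 lower, that is more higher than lower calls, whereas over all genes tested 12.5% were higher and 18.1% lower. The same shares of 12.5% and 18.1% are the background for the counts of each list below. The median log2 fold change of the 71 was 0.15, beside -0.19 over all genes. Leaving out 1 library moved these counts. Higher calls were 21, 10 and 16 without control 1, 2 and 3, and 9, 10 and 8 without EtP 1, 2 and 3. Lower calls were 14, 6 and 10 without control 1, 2 and 3, and 6, 7 and 7 without EtP 1, 2 and 3. The counts over all genes moved too, from 1798 higher to between 1096 and 2637, and from 2601 lower to between 1659 and 2887. With library-size scaling the split was 1 higher and 28 lower. In TPM by limma it was 4 higher (Lig1, Zfp57, Dppa3 and Mat2b) and 18 lower. With at least 10 CPM in 3 libraries it was 7 higher (these 4, Usp7, Setdb1 and Apex1) and 7 lower. Usp7, Setdb1 and Apex1 were not called in TPM (limma adjusted p = 0.190, 0.0650 and 0.0667). The rest of the 15 were called higher in neither setting.

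Of the maintenance partners 13 of 16 were tested, 5 rose and 2 fell, with a median of 0.46. Usp7, which encodes a deubiquitinase that binds DNMT1 and UHRF1, had 220.4, 267.3 and 248.8 CPM in control and 530.0, 431.3 and 538.2 in EtP (log2 1.03 ± 0.20, SE; edgeR adjusted p = 0.00387). Its EtP libraries all lay above the controls. Lig1, the replicative DNA ligase that also draws in UHRF1, rose from 7.02 ± 1.17 to 16.1 ± 1.495 CPM (1.20; adjusted p = 0.00489) and the deacetylase gene Hdac1 from 19.3 ± 4.45 to 38.1 ± 10.9 (0.98; adjusted p = 0.0241). Rb1, the retinoblastoma gene, fell from 56.8 ± 13.9 to 31.4 ± 4.51 CPM (-0.86; adjusted p = 0.0247). Named after their values were seen, the H3 lysine 9 methyltransferase gene Ehmt1 (0.70; adjusted p = 0.0402) and Dmap1, named for its binding to DNMT1 (0.77; 0.0349), also rose, and Uhrf2, the paralog of Uhrf1, fell from 1.75 ± 0.296 to 0.419 ± 0.132 CPM (-2.05; 0.00698). Pcna, the sliding clamp, was at 139.7 ± 39.3 and 126.2 ± 9.61 CPM and was not called (adjusted p = 0.67). With 1 library left out, edgeR lost the call of Hdac1 (without control 2, EtP 1 or EtP 2; adjusted p = 0.0691, 0.0851 and 0.0949), of Rb1 (without any single library other than control 1; 0.0703 to 0.146), of Uhrf2 (without EtP 1; 0.0523), of Ehmt1 (without control 2 or any single EtP library; 0.0803 to 0.116) and of Dmap1 (without any single library other than control 1; 0.0634 to 0.104). All higher calls in the list were lost with library-size scaling.

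Of the list of de novo methylation partners, which also holds genes of imprint protection, 9 of 10 were tested. Among them 3 rose and none fell, with a median of 0.51. Of the genes that rose, Zfp57 and Setdb1 belong to imprint protection. Zfp57, which encodes the zinc-finger protein that protects imprinted methylation in the embryo, had 3835, 4138 and 3028 CPM in control and 16901, 14100 and 14607 CPM in EtP libraries. The EtP libraries were far above the controls, with a log2 increase of 2.05 ± 0.22 (SE; edgeR adjusted p = 9.49e-05) that was called in each setting. Setdb1, the histone H3 lysine 9 methyltransferase of the same complex, had 167.6, 277.2 and 248.8 CPM in control and 535.8, 515.5 and 569.5 in EtP (1.22 ± 0.23; adjusted p = 0.00301). Setd2, which writes the H3 lysine 36 mark that DNMT3 proteins read, rose from 20.1 ± 2.64 to 36.6 ± 12.1 CPM (0.86; adjusted p = 0.0341). Its call was lost without control 2 (0.0783), EtP 2 (0.141) or EtP 3 (0.0544). Kdm1b, the H3 lysine 4 demethylase that precedes methylation in the egg, was at 109.5 ± 14.6 and 156.2 ± 15.01 CPM without a call (0.51; 0.0827). It was called higher with RLE scaling (adjusted p = 0.0427), by DESeq2 (0.0227) and without control 1 (0.0338), but its sign changed with library-size scaling (-0.22) and in TPM, where limma called it lower (-0.64; adjusted p = 0.0466). With library-size scaling the calls of Setdb1 and Setd2 were lost.

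Of the TET regulators and genes of cofactor supply 8 of 11 were tested, 2 rose and 1 fell, with a median of 0.13. Dppa3, also known as Stella, whose protein shields the maternal genome from TET3 and inhibits UHRF1, had 3685, 2446 and 1928 CPM in control and 6251, 7161 and 5453 in EtP libraries. The groups did not overlap, and the log2 increase was 1.23 ± 0.26 (SE; edgeR adjusted p = 0.00597). Slc23a2, a transporter of ascorbate, a cofactor of TET enzymes, rose from 51.4 ± 18.3 to 107.4 ± 20.8 CPM (1.06; adjusted p = 0.0196; lost without EtP 1, 0.0618, or EtP 3, 0.0707). Ogt, the glycosyltransferase that binds TET proteins, fell from 39.2 ± 6.22 to 20.7 ± 6.50 CPM (-0.92; adjusted p = 0.0256; lost without control 2, 0.127, EtP 1, 0.15, or EtP 2, 0.124). Idh1, which makes the TET cosubstrate 2-oxoglutarate, was at 44.4 ± 4.05 and 32.3 ± 1.57 CPM and was not called (-0.46; 0.117), but it was called lower with library-size scaling (-1.19; 0.00210), with at least 10 CPM in 3 libraries (-0.71; 0.0204) and in TPM by limma (-1.06; 0.0108). With library-size scaling neither Dppa3 nor Slc23a2 was called.

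Of the base excision genes 14 of 17 were tested, 2 rose and 2 fell, with a median of -0.10. Apex1, the endonuclease that cuts at abasic sites left by glycosylases, had 23.6, 19.7 and 19.6 CPM in control and 47.7, 51.5 and 40.6 in EtP (log2 1.15 ± 0.22, SE; edgeR adjusted p = 0.00316). Every EtP library had a higher level than every control. Lig3, the ligase that seals the repaired strand, rose from 48.8 ± 16.6 to 95.6 ± 5.92 CPM (0.97; adjusted p = 0.0204; lost without EtP 1, 0.0576, EtP 2, 0.0521, or EtP 3, 0.0632). The 2 that fell were Gadd45b, from 5.52 ± 1.86 to 0.805 ± 0.168 CPM (-2.77; 0.000611), and Gadd45g, from 4.47 ± 1.82 to 0.327 ± 0.102 CPM (-3.76; 0.000482), stress-response genes proposed to act in active demethylation; both were named after their values were seen. The glycosylase gene Neil3 was at 343.8 ± 81.9 and 542.2 ± 66.7 CPM (0.66; adjusted p = 0.0514) and Parp1 at 15.3 ± 3.56 and 25.9 ± 6.19 (0.75; 0.0536), neither called. Both were called higher with RLE scaling (adjusted p = 0.0420 for Neil3 and 0.0413 for Parp1), without the low-count filter (0.0437 and 0.0412), by DESeq2 (0.0216 and 0.0220), with the replicate block (0.0179 and 0.0256) and without control 1 (0.00160 and 0.00355), each of which made 4 higher calls in the list, and Neil3 also by limma-voom (0.0459). The sign of Neil3 changed with library-size scaling (-0.06) and in TPM (-0.04). With library-size scaling neither Apex1 nor Lig3 was called.

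Of the proteins that bind methylated or unmethylated CpG 12 of 14 were tested, none rose and 3 fell, with a median of -0.21, close to that of all genes. Mbd6 fell from 8.08 ± 2.02 to 3.34 ± 0.124 CPM (log2 -1.27; edgeR adjusted p = 0.00869). The other 2, named after their values were seen, were Mbd2, from 4.95 ± 0.679 to 2.32 ± 0.493 CPM (-1.10; 0.0228; lost without control 2, 0.0584, EtP 1, 0.122, or EtP 3, 0.0908), and the zinc-finger gene Zbtb38, from 3.24 ± 1.20 to 0.658 ± 0.428 CPM (-2.23; 0.00879). Kdm2b (261.3 ± 65.5 and 360.6 ± 62.7 CPM), Kmt2b (18.1 ± 5.38 and 25.2 ± 10.6) and Mbd5 (69.0 ± 16.4 and 58.8 ± 9.24) were not called (0.46, 0.47 and -0.23; adjusted p = 0.178, 0.312 and 0.51). The signs of Kdm2b (-0.27) and Kmt2b (-0.29) changed with library-size scaling, and that of Kmt2b also in TPM (-0.03). Mbd5 was called lower with library-size scaling (-0.97; adjusted p = 0.0130).

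Of the methyl donor cycle, which supplies S-adenosylmethionine to the methyltransferases, 15 of 17 genes were tested, 3 rose and 2 fell, with a median of 0.12. Mat2b, the regulatory subunit of methionine adenosyltransferase, had 1419, 1128 and 1109 CPM in control and 2815, 2649 and 2347 in EtP libraries (log2 1.10 ± 0.21, SE; edgeR adjusted p = 0.00292). Its controls and EtP libraries were well apart. Mthfd1, a folate-cycle enzyme, rose from 25.04 ± 8.23 to 54.4 ± 11.6 CPM (1.12; adjusted p = 0.0154; lost without EtP 3, 0.0638), and Mat1a, named after its values were seen, had 13.6 ± 1.65 and 22.4 ± 4.03 CPM (0.73; 0.0414; lost without control 2, EtP 1 or EtP 3, 0.109 to 0.133). Ahcyl2 fell from 7.36 ± 0.283 to 3.17 ± 0.327 CPM (-1.22; adjusted p = 0.00719) and Shmt1, the cytosolic serine hydroxymethyltransferase, from 12.1 ± 3.51 to 5.56 ± 1.05 (-1.12; 0.0181; lost without control 2 or any single EtP library, 0.0518 to 0.11). With library-size scaling Mat2b, Mthfd1 and Mat1a were not called.

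**Figure D4:**
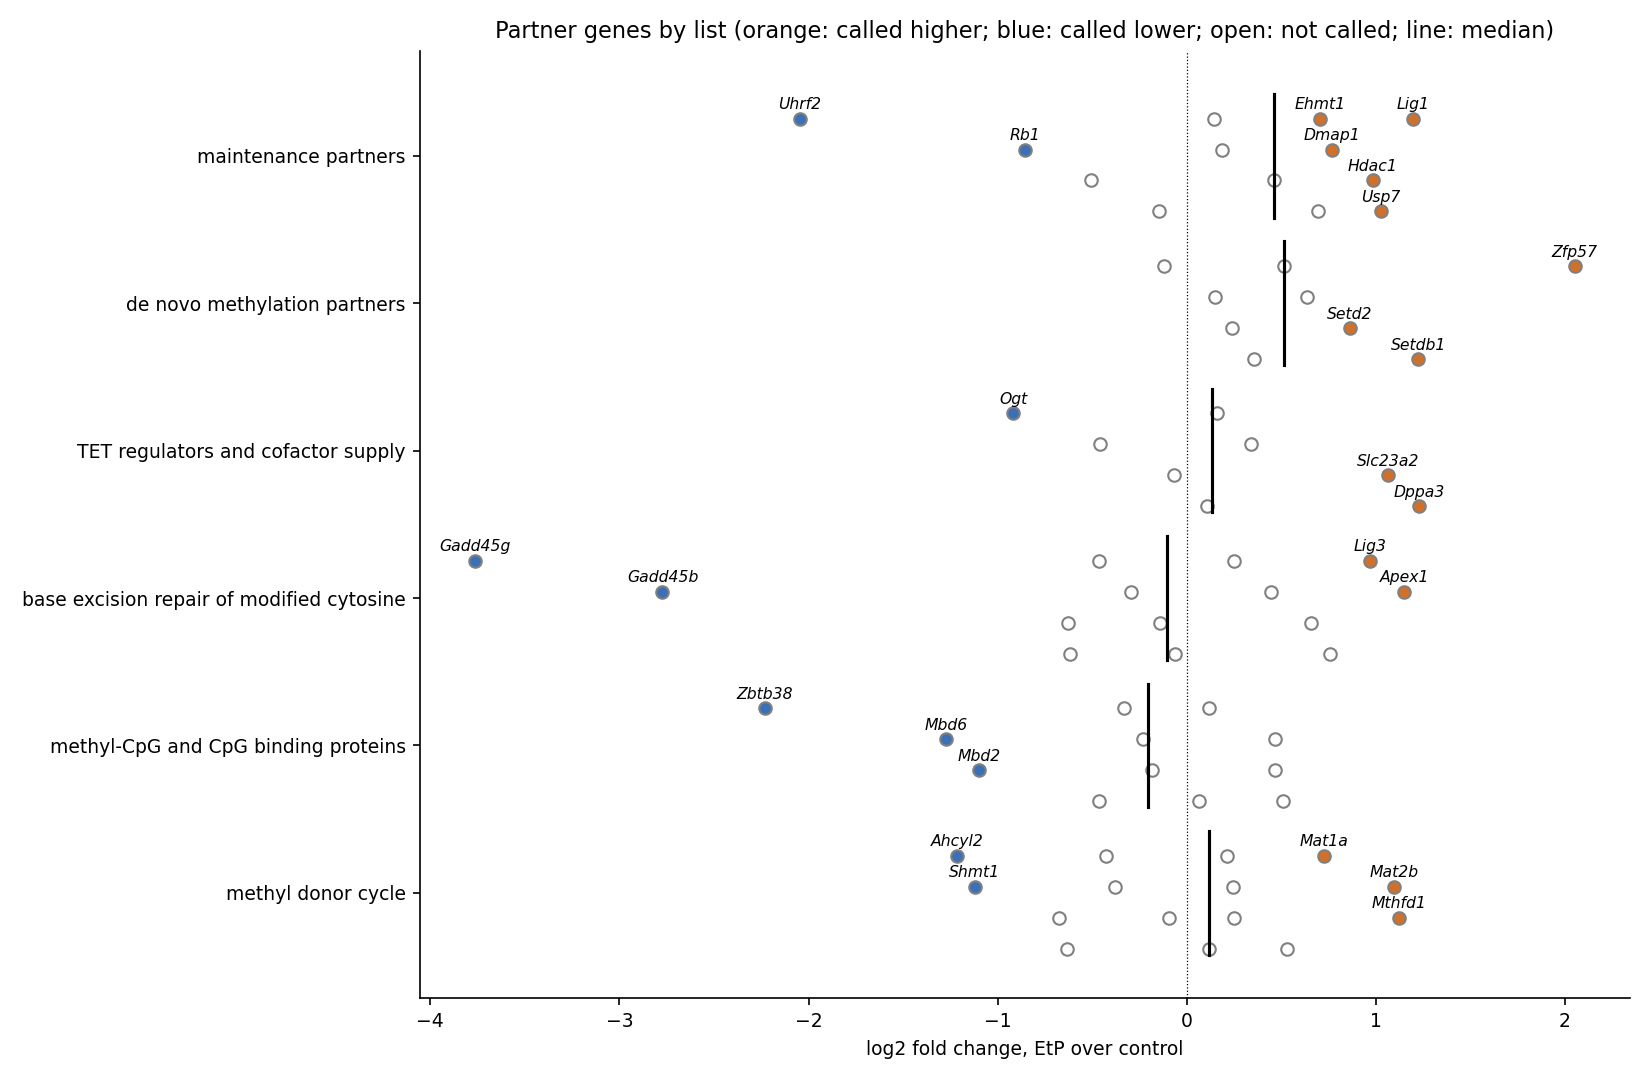
Log2 fold change of EtP over control (linear axis) for the 71 tested partner genes in 6 lists; orange points were called higher, blue called lower and open points not called, and the black line is the median of each list. The de novo list, which also holds genes of imprint protection, and the maintenance list have the highest medians (0.51 and 0.46). Zfp57 is the farthest to the right, at 2.05.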

How the data were processed

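Polyadenylated RNA was amplified by Smart-seq2 with an oligo-dT primer and sequenced as paired reads without strand information or molecular identifiers, per the labels' protocols. The submitters' processing notes name cutadapt 1.16, STAR (its version, like the counting program, is not given in the sources used here) and the mm10 build. Per gene and library, the deposited tables hold an expected count that shares ambiguous reads between genes (10.6% to 16.0% of rows were not whole), a TPM value in which the authors corrected for gene length and library depth, and an average transcript length in bases, per the file headers.

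Expected counts were rounded and tested with edgeR 4.0.16 in R 4.3.3 (filterByExpr defaults, TMM, robust quasi-likelihood fit, group only) over all genes, with Benjamini-Hochberg adjustment at 0.05. CPM uses TMM-scaled library sizes; each standard error was taken as the size of the log2 fold change over the root of the F statistic. For ratios, shares and lengths, exact permutation tests (two-sided) were run over libraries. Depth was 11173295 to 14737152 counts per library; PCR copies were not marked, so the limit of 3 counts for a count of 0 covers counting error only. The edgeR step was run on simulated data with a small set of changed genes, in both directions. The simulation did not copy the difference in scaling between the groups, so it does not bear on it.

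Alternatives tried were upper-quartile, RLE and library-size scaling, no filter or at least 10 CPM in 3 libraries, DESeq2 1.42.0, limma-voom and limma (3.58.1) on log2(TPM + 1), on which scale low genes' changes are understated, an adjusted p of 0.01, a replicate block and leaving out each library. Named were the 9 genes, per partner list the up to 4 genes of lowest p among those averaging 5 CPM or more, the 2 most abundant of each marker list, and per called gene the 3 of most similar profile. The genes and lists were chosen with earlier results of these data known. Positions and transcripts are from GENCODE M21, which held 55154 of the 55335 Ensembl IDs; promoters are from RefSeq on GRCm38.p6, matched by symbol for 9 of 9 genes. The numbered libraries were not taken as pairs. Figures were drawn with matplotlib 3.10.9.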

Additional observations from a re-analysis of the deposited data

How the results depend on the processing

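Dnmt1 and Dnmt3l kept their direction and call under every alternative run. For the other genes named, scaling changed the sign or the call of some. With library size alone the log2 fold change was -0.34 for Uhrf1, -0.0768 for Dnmt3a, -0.48 for Dnmt3b, -0.0639 for Tet3, -0.22 for Kdm1b, -0.0580 for Neil3, -0.27 for Kdm2b, -0.29 for Kmt2b, -0.0418 for Ehmt1 and -0.0048 for Mat1a, each of the opposite sign to the TMM value, and Tet1 (-1.33) and Tet2 (-1.39) were called; the median of all genes moved from -0.19 to -0.92. With limma on log2(TPM + 1) the values were -0.16 for Uhrf1, -0.20 for Dnmt3b, -0.20 for Tet3, -0.64 for Kdm1b, -0.0355 for Neil3 and -0.0260 for Kmt2b, also reversed, Tet2 was called (-1.26) and Dnmt3a was not (0.25). Dnmt3a was not called with upper-quartile scaling (0.59, adjusted p = 0.0507), with at least 10 CPM in 3 libraries (0.41) or at an adjusted p of 0.01 (0.66), and lay between 0.61 and 0.80 with 1 library left out. Tet3 was called without the filter (0.74), by DESeq2 (0.80) and with the replicate block (0.80), and lay between 0.50 and 1.08 with 1 library left out.

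Among all genes the higher and lower calls, 1798 and 2601, were 545 and 7617 with library size alone, 978 and 1454 with at least 10 CPM in 3 libraries, 667 and 5313 with limma on TPM, 918 and 1403 at an adjusted p of 0.01, and 1096 to 2637 and 1659 to 2887 with 1 library left out. Lower calls were 59.1% of calls by TMM, 93.3% with library size alone and 88.8% in TPM. Of the 9 genes 1 was called higher, in place of 2, with upper-quartile scaling, library size alone, at least 10 CPM, TPM and an adjusted p of 0.01, and 1 to 3 with 1 library left out; 3 were called lower with library size alone and 2 in TPM, in place of 1. Of the partner genes the higher calls, 15, were 1 with library size alone, 7 with at least 10 CPM, 4 in TPM, 7 at an adjusted p of 0.01 and 8 to 21 with 1 library left out. The lower calls, 10, were 28, 18 in TPM, 6 at 0.01 and 6 to 14. With expected counts in place of TPM the log2 ratio differed by 3.15 for Dnmt1 to Dnmt3a and by -3.02 for Tet3 to Dnmt1, and the shares of Dnmt1, Dnmt3b and Tet2 differed by 48.7, -3.58 and -1.40 percentage points, with the direction kept. The cause of these changes was not tested. A fit on rows with an Ensembl ID only, chosen after seeing the data, moved no call of the 9 genes.

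Replicate numbers were not taken to pair the libraries: deviations of same-numbered libraries correlated at 0.127, 0.003 and 0.273, and control 2 correlated more with EtP 1 (0.017) than with EtP 2. With the replicate block 2295 genes were called higher and 3022 lower, and of the 9 genes Tet3 was added to the calls. Depth limits Tdg, with 0 to 5.11 counts per library, and Tet1 and Tet2, with 21 to 109.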
